A study of Mus musculus with 69 samples.

Results

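Unmodified titanium dioxide nanoparticles (NRCWE-001) at the highest dose, 162 µg, were compared with the vehicle in mouse lung 28 days after exposure, to ask what inflammation and remodelling persisted and how far single animals differed. The comparison rested on 9 of the 69 arrays of the series, taken by their labels: 5 exposed mice and 4 vehicle mice, 1 mouse per array. All were female C57BL/6 mice that arrived 5 to 7 weeks old and were acclimatised for 1 to 3 weeks. Each received a single intratracheal instillation, either of particles suspended in water with 2% serum or of that vehicle alone. RNA came from a section of frozen whole lung. On each array the lung RNA (Cy5) was read against a commercial mouse reference RNA (Cy3), so every level below is the log2 ratio of lung to reference signal, and every change is a difference of such ratios. Further groups, each of 5 mice, were used for comparison: NRCWE-001 at 162 µg on day 1 (beside 5 vehicle mice of day 1), NRCWE-001 at 18 µg and at 54 µg on day 28, and NRCWE-002, which carries a positive charge, at 162 µg on day 28.

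Particles that settle in the alveoli are taken up by macrophages, and epithelial cells and macrophages then release chemokines that bring in neutrophils and monocytes. Acute-phase proteins such as serum amyloid A3 and lipocalin 2 are made in the lung itself during this response. When particles persist, lipid-handling macrophages that express Spp1, Gpnmb and Trem2 can accumulate, and in fibrotic disease fibroblasts deposit collagens and other matrix proteins.

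The exposed group was not uniform, and this touches most of the results. Exposed replicates 1, 4 and 5 had high levels of many inflammatory genes, while exposed replicates 2 and 3 lay in or near the vehicle range. Nothing in the labels separates these animals, so they are described 1 by 1 and were not tested against each other. The array of exposed replicate 2 was also brighter than the others, with 86.7% of its spots well above background against 61.9% to 69.3% on the other 8 arrays. The part of its brightness in the results was not tested. On 1 slide of the series an exposed and a vehicle array lay together, exposed replicate 1 and vehicle replicate 2. Correlations across 17634 genes, which are not independent replicates, ran from 0.912 to 0.985 between exposed arrays and from 0.937 to 0.986 between vehicle arrays. The lung label was checked against markers: all 9 alveolar type 2, all 7 alveolar type 1 and all 11 endothelial marker genes tested were well above background on all 9 arrays.

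Across all genes the adjusted test called 8 of 17634 genes (0.0454%), 6 higher (0.034%) and 2 lower (0.0113%) in exposed lungs. Of the genes tested, 1521 (8.63%) had an unadjusted p below 0.05, 695 higher (3.94%) and 826 lower (4.68%), and 59 differed by more than 2-fold. The median change over all genes was -0.01. Of the 6 genes that rose, 4 encode transcription factors: Nr4a1 (an orphan nuclear receptor and immediate early gene), Atf3 (a stress-induced bZIP factor), Nfil3 (a bZIP repressor of clock output genes that also acts in immune cells) and Fosl2 (a subunit of AP-1).

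Nr4a1 was the largest of the 8 changes. Its log2 ratio was 1.11, 1.71, 2.51, 2.15 and 1.93 in exposed replicates 1 to 5 and -0.88, -0.48, 0.84 and -0.21 in vehicle replicates 1 to 4. Every exposed mouse, replicates 2 and 3 included, lay above every vehicle mouse. The mean went from -0.18 ± 0.74 (SD, n = 4) to 1.88 ± 0.52 (SD, n = 5), a log2 change of 2.06 (SE 0.43) or 4.18-fold, with an adjusted p of 0.0301 by limma. Atf3 read 0.52, -0.70, 0.19, 0.34 and 0.89 in the exposed mice against -0.75 ± 0.22 (SD, n = 4) in the vehicle mice, the highest of which read -0.47. Only exposed replicate 2 fell within the vehicle range. Its log2 change was 1.00 (SE 0.21, adjusted p = 0.0301). Nfil3 read -0.45, -2.13, -1.45, -1.08 and -1.16 against -2.50 to -2.11, again with exposed replicate 2 inside the vehicle range by a narrow margin. The log2 change of Nfil3 was 1.02 (SE 0.20, adjusted p = 0.0273), and its 2 probes gave 1.08 and 0.95. Fosl2 read 0.00, 0.17, -0.03, 0.20 and 0.38 against -0.45 to -0.20, so the groups did not overlap. Its log2 change was smaller, at 0.49 (SE 0.10, adjusted p = 0.0301).

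The 4 genes were all called higher, but their order among the exposed mice differed: replicate 1 was lowest for Nr4a1 and highest for Nfil3. Their promoters are shown because cAMP response elements, bound by CREB and ATF factors, are textbook features of immediate early genes. The sequences are RefSeq's for build GRCm38.p6, 300 bases each that end 50 bases after the gene start, written 5′ to 3′ on the gene's strand, at chr15:101266596-101266895 (Nr4a1, plus strand), chr1:191183284-191183583 (Atf3, minus strand), chr13:52980990-52981289 (Nfil3, minus strand) and chr5:32136222-32136521 (Fosl2, plus strand). Capitals mark TGACG, the half-site of the cAMP response element, or its reverse complement.
Nr4a1: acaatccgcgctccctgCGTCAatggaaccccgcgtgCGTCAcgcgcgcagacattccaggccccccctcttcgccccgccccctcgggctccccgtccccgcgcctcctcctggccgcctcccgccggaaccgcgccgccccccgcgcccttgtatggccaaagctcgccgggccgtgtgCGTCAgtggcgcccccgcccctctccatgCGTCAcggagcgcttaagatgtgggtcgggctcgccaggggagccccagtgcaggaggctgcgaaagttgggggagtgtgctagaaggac
Atf3: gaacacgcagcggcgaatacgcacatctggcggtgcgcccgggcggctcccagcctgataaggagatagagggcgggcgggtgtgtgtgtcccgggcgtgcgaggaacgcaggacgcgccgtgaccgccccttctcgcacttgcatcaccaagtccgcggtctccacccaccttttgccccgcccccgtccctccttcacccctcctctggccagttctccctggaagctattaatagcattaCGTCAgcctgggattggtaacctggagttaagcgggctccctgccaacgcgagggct
Nfil3: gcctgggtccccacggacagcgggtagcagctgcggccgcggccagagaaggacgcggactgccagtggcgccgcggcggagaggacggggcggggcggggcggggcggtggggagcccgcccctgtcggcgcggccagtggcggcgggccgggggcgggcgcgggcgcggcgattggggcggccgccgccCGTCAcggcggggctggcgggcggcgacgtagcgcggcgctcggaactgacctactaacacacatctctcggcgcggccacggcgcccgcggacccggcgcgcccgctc
Fosl2: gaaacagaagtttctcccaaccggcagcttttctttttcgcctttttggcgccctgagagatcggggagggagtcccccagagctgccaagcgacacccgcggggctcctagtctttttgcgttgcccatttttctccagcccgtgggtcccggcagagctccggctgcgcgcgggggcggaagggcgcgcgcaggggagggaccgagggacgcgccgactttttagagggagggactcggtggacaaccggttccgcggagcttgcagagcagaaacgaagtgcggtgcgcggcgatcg
Nr4a1 held 4 half-sites, Atf3 and Nfil3 held 1 each, and Fosl2 held none. Of all 32851 promoters of this length, 20.8% held at least 1 half-site on either strand and 0.231% held 4 or more. The full palindrome TGACGTCA and the AP-1 letters TGANTCA, present in 1.79% and 7.81% of all promoters, were in none of the 4. A match is a description of the letters only.

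The other called genes had smaller or more scattered changes. Gpr171, a G protein-coupled receptor, read 0.42, -0.34, -0.35, 0.79 and 0.96 in the exposed mice against -0.95 to -0.51, a log2 change of 1.02 (SE 0.22, adjusted p = 0.0425). Stra6l, a membrane receptor for retinol-binding protein, read 0.01, -0.41, -0.45, 0.50 and 0.41 against -0.71 to -0.57. Its log2 change was 0.64 (SE 0.13, adjusted p = 0.0273), but its 2 probes gave 1.08 and 0.21. In both genes exposed replicates 2 and 3 were the lowest exposed mice and still lay above the vehicle range. Slc35f3, a solute carrier, had the smallest adjusted p of all, 0.00903, and fell by 0.49 on the log2 scale (SE 0.086). It read 0.25, 0.19, 0.33, 0.11 and 0.04 in the exposed mice and 0.64, 0.63, 0.71 and 0.71 in the vehicle mice, with changes of -0.75 and -0.23 from its 2 probes. Sspn, which encodes sarcospan of the dystrophin-glycoprotein complex, fell by 0.51 (SE 0.11, adjusted p = 0.0425), from 1.59 ± 0.12 (SD, n = 4) to 1.09 ± 0.22 (SD, n = 5), and its groups did not overlap.

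**Figure D1:**
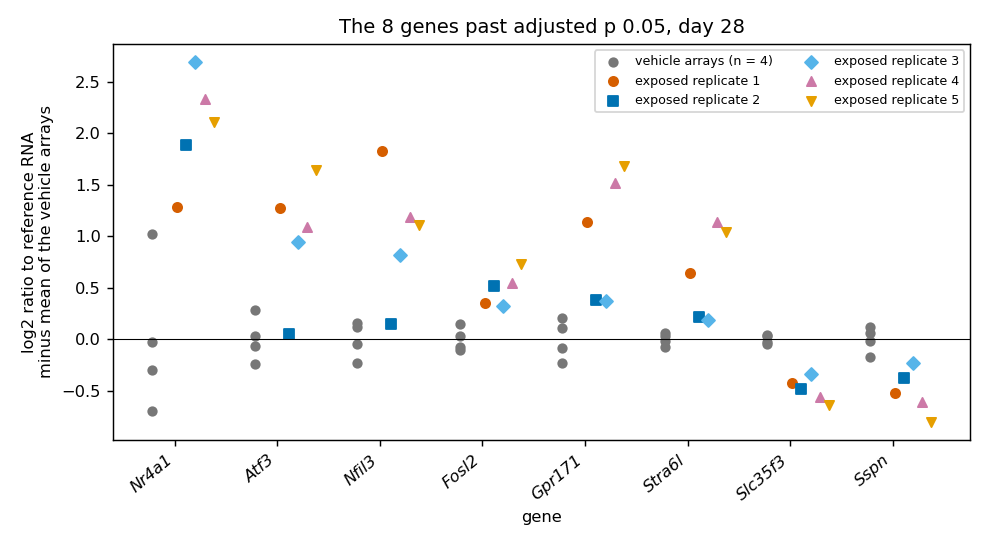
Log2 ratio to reference RNA minus the mean of the vehicle arrays (vertical axis) for the 8 genes past adjusted p 0.05 (horizontal axis), with 1 point per mouse: grey circles for the 4 vehicle arrays and coloured symbols for exposed replicates 1 to 5. All 5 exposed mice lie above the vehicle mice for Nr4a1, Fosl2, Gpr171 and Stra6l and below them for Slc35f3 and Sspn, while exposed replicate 2 lies in the vehicle range for Atf3 and Nfil3.

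These 8 calls depended on single arrays and on how the slide was treated. Without vehicle replicate 4, exposed replicate 4 or exposed replicate 5 no gene was called, without vehicle replicate 1 only 1, and without exposed replicate 1 only 3, while 70 were called without exposed replicate 2 and 85 without exposed replicate 3. With slide as a random block 7 genes were called, 6 of them among the 8. With slide as a fixed block, the form meant wherever a slide block is named below, no gene was called, 813 had an unadjusted p below 0.05, and the log2 changes became 2.02 for Nr4a1, 1.03 for Atf3, 0.97 for Nfil3, 0.39 for Fosl2, 0.93 for Gpr171, 0.39 for Stra6l, -0.37 for Slc35f3 and -0.39 for Sspn.

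Immediate early genes are those a stimulated cell transcribes without new protein synthesis. Of 28 tested, 12 were higher at an unadjusted p below 0.05 and 1, Klf10, was lower (log2 change -0.51), and 3 passed the adjusted test (Nr4a1, Atf3 and Fosl2). The median change of the list was 0.44. Nr4a2, a relative of Nr4a1, had a log2 change of 0.91 (adjusted p = 0.114), Egr2 0.72 (adjusted p = 0.223) and Junb 0.59 (adjusted p = 0.284). The spread within this list was not larger in exposed than in vehicle mice: the median SD was 0.29 against 0.33. Exposed replicates 1 to 5 had 10, 4, 15, 13 and 13 of the 28 genes above the highest vehicle array. As shares these were 35.7%, 14.3%, 53.6%, 46.4% and 46.4%, against 24.1%, 17.2%, 18.0%, 22.1% and 20.8% of all genes. Replicate 2 thus had no more than its share over all genes. The list means of replicates 1 and 2, 0.33 and 0.30, lay below that of vehicle replicate 3, 0.40.

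In contrast, the genes of inflammation varied widely among exposed mice. None of the genes of inflammation, macrophages, matrix and structural cells named below passed the adjusted test against vehicle, so their differences from vehicle are given as values. Saa3, the lung's serum amyloid A, read 0.40, -3.21, -3.41, 1.08 and 2.07 in exposed replicates 1 to 5 and -3.72, -3.67, -3.46 and -3.74 in the vehicle mice. All 5 exposed mice lay above the vehicle mice, replicates 2 and 3 by a narrow margin and the others by several log2 units. The mean was -0.62 ± 2.53 (SD, n = 5) against -3.65 ± 0.13 (SD, n = 4), a log2 difference of 3.03 (SE 1.21, adjusted p = 0.413). Lcn2, an iron-sequestering acute-phase protein, read 3.97, 0.99, 1.29, 4.40 and 4.34 against 1.47, 1.23, 1.49 and 1.31. Exposed replicate 2 was below all 4 vehicle mice, and the log2 difference of the means was 1.62 (SE 0.65, adjusted p = 0.411).

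Chemokines were mostly high in the same animals. Cxcl5, a neutrophil attractant made by lung epithelium, read 0.81, -2.89, -3.24, 0.81 and 0.80 in the exposed mice and -3.53, -2.88, -3.45 and -3.57 in the vehicle mice. It was well above background on 4 exposed arrays and on no vehicle array, and the sample channel alone gave a difference of at least 5.12-fold. That limit sets the exposed mean against the higher of the dimmest signal well above background and the probe's own signal on each vehicle array, and it is open to dye bias since no dyes were swapped. Ccl2, the main monocyte attractant, read -2.54, -3.74, -4.35, -1.71 and -0.68 against -5.06 to -4.28, a log2 difference of 1.96 (SE 0.56, adjusted p = 0.192). Here exposed replicate 2 also stood above the vehicle mice and replicate 3 did not. Cxcl1 departed from the pattern, with its highest exposed level in replicate 2 (-1.54) and its lowest in replicate 3 (-4.04), against -4.71 to -3.55 in vehicle. Its log2 difference was 1.49, and 0.70 with slide as a block, and it too was well above background on 2 of the 4 vehicle arrays. Of the 27 chemokines tested, 15 were higher and none lower at an unadjusted p below 0.05, with a list median of 0.61. They included Cxcl10 (log2 difference 2.06), Ccl7 (1.90) and Ccl8 (1.59). Among cytokines, Il6 was one of the uncalled genes with the largest differences whose groups did not overlap (log2 difference 0.95, adjusted p = 0.319), although it was well above background on 2 of the 4 vehicle arrays, while Il1b overlapped (1.18, adjusted p = 0.264).

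**Figure D2:**
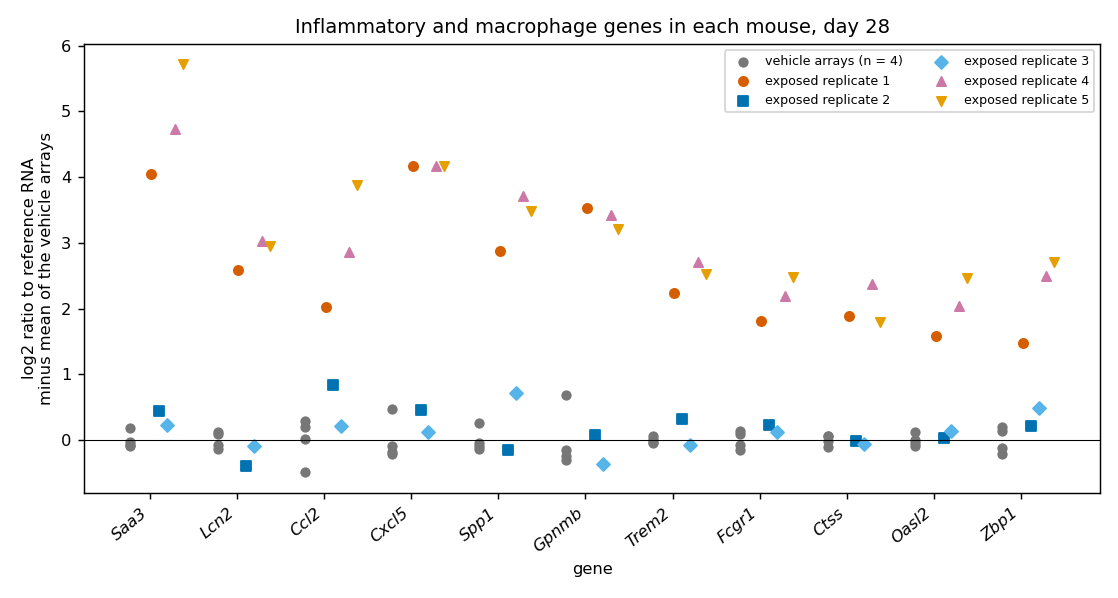
Log2 ratio to reference RNA minus the mean of the vehicle arrays (vertical axis) for 11 inflammatory, macrophage and interferon-stimulated genes (horizontal axis), 1 point per mouse, with vehicle arrays in grey and exposed replicates 1 to 5 as coloured symbols. Exposed replicates 1, 4 and 5 stand well above the vehicle arrays for every gene shown, and replicates 2 and 3 lie within about 1 log2 unit of the vehicle mean.

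The interferon-stimulated genes are an antiviral programme that type I and type II interferons induce. Of 28, 22 were higher and none lower at an unadjusted p below 0.05, all 28 changes were above 0, and the median was 0.70 (0.62 with slide as a block). Irf7, the transcription factor that amplifies the programme, had a log2 difference of 1.74 (adjusted p = 0.273), Isg15 1.48 and Oas1a 1.47. Zbp1, a sensor of unusual nucleic acids, read 1.65, 0.38, 0.65, 2.66 and 2.87 against -0.04 to 0.36 in vehicle, and its groups did not overlap (log2 difference 1.48, adjusted p = 0.255). Exposed replicates 1, 4 and 5 had 25, 27 and 27 of the 28 genes above the highest vehicle array. Replicates 2 and 3 had 3 and 7, or 10.7% and 25.0%, close to their shares over all genes of 17.2% and 18.0%. All 28 genes varied more among exposed than among vehicle mice, against 59.5% of all genes. Of 17 antigen presentation genes, 12, 2, 0, 14 and 12 lay above the vehicle range in exposed replicates 1 to 5, and 1, 10, 3, 0 and 1 below it. Replicate 2 was thus low for this list, with 58.8% of its genes below the vehicle range against 31.2% of all genes. This was not particular to antigen presentation. In the same mouse 100% of alveolar type 2, 90.9% of endothelial and 64.3% of T cell markers lay below that range. The share was 25.9% for chemokines and 7.14% for immediate early genes. B2m, the light chain of MHC class I, had a log2 difference of 0.69 (adjusted p = 0.255).

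Macrophage genes included the uncalled gene with the smallest adjusted p of those named. Spp1 (osteopontin) read -2.24, -5.26, -4.39, -1.40 and -1.63 in the exposed mice and -5.15, -4.85, -5.25 and -5.20 in the vehicle mice. Exposed replicates 1, 3, 4 and 5 lay above the vehicle range and replicate 2 just below it, and the log2 difference was 2.13 (SE 0.47, adjusted p = 0.0576). Gpnmb, a lysosomal glycoprotein of lipid-laden macrophages, read -0.23, -3.68, -4.12, -0.34 and -0.56 against -4.06, -3.07, -3.91 and -4.01. Trem2, a lipid-sensing receptor, read 0.10, -1.83, -2.21, 0.57 and 0.38 against -2.19 to -2.09. Their log2 differences were 1.98 (SE 0.51, adjusted p = 0.124) and 1.54 (SE 0.37, adjusted p = 0.114), and exposed replicates 1, 4 and 5 held the high values. Of 25 genes of macrophage lysosome and lipid handling, 8 were higher and none lower at an unadjusted p below 0.05, with a median of 0.27. Ctss, the lysosomal protease cathepsin S, had a difference of 1.20 and Ch25h, which makes 25-hydroxycholesterol, 1.28. Of 19 pattern and scavenger receptors, 11 were higher and 1 lower, with the antibody receptor Fcgr1 at 1.37, Clec4e at 1.06 and the scavenger receptor Msr1 at 0.89 (0.56 with slide as a block). Of 13 genes of alternative macrophage activation 1 was higher and none lower, with a median of -0.04 that became 0.10 with slide as a block. Arg1 differed by -0.10 (SE 0.32) and Retnla by 0.37 (SE 0.55), and both changed sign under some settings.

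The marker lists place these values beside cell types, although in whole lung fewer cells of a type and less RNA per cell cannot be told apart. Of 11 markers of interstitial macrophages and monocytes, 7 were higher and 1 lower at an unadjusted p below 0.05, with a median of 0.58. The mean log2 ratio over this list ran from 1.43 to 2.77 in exposed mice and from 1.55 to 1.81 in vehicle mice. C1qa, C1qb and C1qc, the complement subunits of tissue macrophages, differed by 0.58, 0.70 and 0.54, and Ly6c2 of monocytes by 0.65. Of 10 alveolar macrophage markers none was higher and 2 were lower, and the median was -0.07, but 0.20 with slide as a block. Exposed replicates 1 to 5 had 5, 0, 1, 4 and 3 of these markers above the vehicle range and 1, 7, 1, 2 and 2 below it. As shares, 50%, 0%, 10%, 40% and 30% lay above, against 24.1%, 17.2%, 18.0%, 22.1% and 20.8% of all genes. Below it lay 10%, 70%, 10%, 20% and 20%, against 25.3%, 31.2%, 20.6%, 23.1% and 22.5% of all genes. None of 11 neutrophil markers was higher or lower at that p, and their median was 0.04 (0.17 with slide as a block). List means ran from 0.95 to 1.78 in exposed and from 1.26 to 1.50 in vehicle mice. Exposed replicates 1 to 5 had 6, 1, 0, 6 and 2 of them above the vehicle range and 1, 8, 2, 0 and 1 below it. Replicates 1 and 4 thus had 54.5% above, against 24.1% and 22.1% of all genes. Replicate 2, the brighter array, had 72.7% below, against 31.2% of all genes, and was low in many other marker lists too. Of the 11, 9 were well above background on all 9 arrays.

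**Figure D3:**
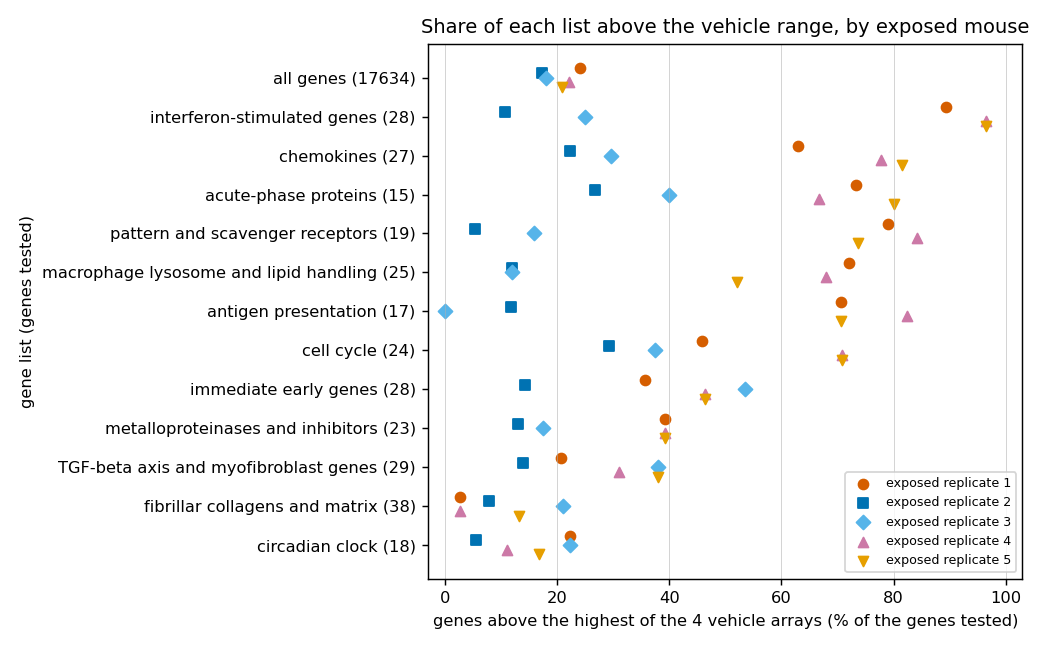
Share of the genes of each list (vertical axis, with the number of genes tested) that lay above the highest of the 4 vehicle arrays (horizontal axis, percent), for exposed replicates 1 to 5 as coloured symbols. Over all genes the 5 mice lie between 17.2% and 24.1%, whereas for interferon-stimulated genes replicates 1, 4 and 5 lie at 89.3% to 96.4% and replicates 2 and 3 at 10.7% and 25.0%.

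Genes of matrix remodelling had a different pattern. Of 38 fibrillar collagens and other matrix genes, none was higher and 4 were lower at an unadjusted p below 0.05, with a median of -0.13. Col1a1, the main fibrillar collagen chain, read -1.92, -1.81, -1.54, -1.78 and -1.89 in the exposed mice and -1.98, -1.57, -1.64 and -1.83 in the vehicle mice. The ranges coincided, and its log2 difference of -0.03 (SE 0.23) had no settled sign across settings. Col3a1 differed by 0.06 (SE 0.17) and fibronectin (Fn1) by -0.01 (SE 0.29), also without a settled sign. Tnc, a matrix glycoprotein of wound repair, differed by 0.26 (SE 0.15), and by 0.06 with slide as a block, with overlapping groups. The lower matrix genes were Tnxb (tenascin XB, log2 difference -0.49, adjusted p = 0.169), Sparc (-0.34), Postn (-0.30) and Loxl2 (-0.23). For Tnxb all 5 exposed mice, at 1.18 to 1.32, lay below the 4 vehicle mice, at 1.48 to 1.93. Exposed replicates 1 to 5 had 1, 3, 8, 1 and 5 of the 38 matrix genes above the vehicle range and 16, 10, 7, 16 and 17 below it. As shares, 42.1%, 26.3%, 18.4%, 42.1% and 44.7% of the list lay below, against 25.3%, 31.2%, 20.6%, 23.1% and 22.5% of all genes in the same mice.

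No growth factor or protease of remodelling passed the adjusted test against vehicle. Of 29 genes of the TGF-beta axis and of myofibroblasts, 5 were higher and 5 lower at an unadjusted p below 0.05, with a median of 0.00. The higher ones were Inhba (the activin A subunit, log2 difference 0.58), Ccn1 (0.56), Igf1 (0.52), Tgfbi (0.47) and Thbs1 (0.28), and the lower ones Igfbp3 (-0.52), Bmp6 (-0.43), Pdgfb (-0.39), Bmp4 (-0.38) and Pdgfa (-0.26). Among 23 metalloproteinases and inhibitors, 3 were higher and 2 lower, with a median of 0.01. Mmp12, the macrophage elastase, read 0.43, -0.09, 0.06, 0.73 and 0.64 against -0.24 to 0.06 and was well above background on 3 exposed arrays and no vehicle array (log2 difference 0.40, and 0.22 with slide as a block), so that its vehicle level was not measured above background. Timp1, an inhibitor that rises in injured lung, differed by 0.73 (SE 0.52) with overlapping groups. Bicluster 7, a gene set that the study derived from lung disease models and tied to pulmonary fibrosis, had 11 of 19 genes higher and none lower, with a median of 0.44. Those 11 included the macrophage genes Gpnmb and Trem2, the chemokines Cxcl10 and Ccl3, and the antibody joining chain (Igj, 1.56), and no collagen. In exposed replicates 1 to 5, 15, 4, 1, 17 and 16 of the 19 genes lay above the vehicle range. For replicates 2 and 3 these were 21.1% and 5.26%, against 17.2% and 18.0% of all genes. The study reported this set as enriched mostly with carbon nanotubes and carbon black. Its test used statistics of the dose effect and was not repeated here. Bicluster 1, a set with no significant ontology term, had 9 of 17 higher, Bicluster 3 (chemokine activity) 7 of 17 and Bicluster 8 (response to wounding) 7 of 15, with none lower in any of them.

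**Figure D4:**
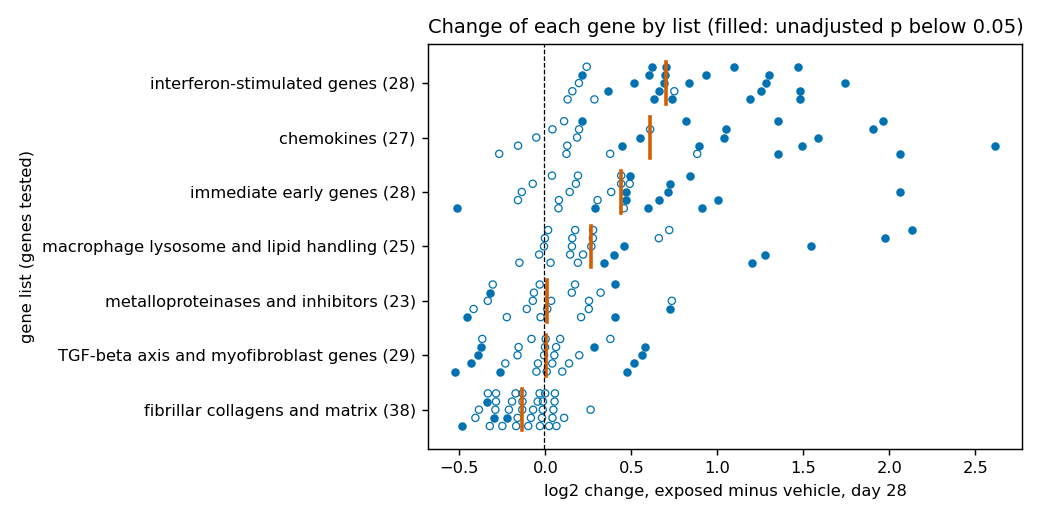
Log2 change of each gene, exposed minus vehicle on day 28 (horizontal axis), by gene list (vertical axis), filled where the unadjusted p was below 0.05. Orange bars are list medians, from 0.70 for interferon-stimulated genes to -0.13 for fibrillar collagens and matrix, and the dashed line is the median of all genes, -0.01.

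Several marker lists had lower levels, of structural cells and also of NK cells. Of 11 endothelial markers, 8 were lower and none higher at an unadjusted p below 0.05, with a median of -0.40 that became -0.17 with slide as a block. Ednrb, the endothelin receptor B, differed by -0.75 and Pecam1, an adhesion molecule of endothelium, by -0.63. The mean of this list ran from 3.67 to 4.36 in exposed and from 4.22 to 4.68 in vehicle mice, lowest in exposed replicate 2, the brighter array, whose part in this was not tested. In exposed replicates 1 to 5, 81.8%, 90.9%, 18.2%, 36.4% and 63.6% of the list lay below the vehicle range. No change was above 0 among 7 alveolar type 1 (3 lower at that p), 11 NK cell (2 lower) and 11 ciliated markers (1 lower). Their medians were -0.26, -0.26 and -0.23, and -0.09, -0.01 and -0.09 with slide as a block. Of 6 mesothelial markers, 4 were lower, with a median of -0.60 (-0.41 with slide as a block). Upk3b, a uroplakin of the mesothelium, read 1.31, 1.47, 0.68, 0.28 and 0.49 against 1.51 to 1.73, without overlap (log2 difference -0.80, or -0.51 with slide as a block, adjusted p = 0.360). Other uncalled genes without overlap and with large negative differences were Fabp1, a fatty acid binding protein (-1.29), Npnt, the matrix ligand nephronectin (-0.92, but -0.25 with slide as a block), Scn3b (-0.88, but -0.44 with slide as a block), Atp2b2 (-0.81, but -0.32) and Sec14l3 (-0.74, but -0.12 with slide as a block). On the higher side the genes of this kind were Zbp1, Il6, Glipr2 (0.77), Chit1, the chitinase of activated macrophages (0.67), Myo5a (0.60, but 0.39 with slide as a block) and Ptges, a prostaglandin E synthase (0.60). Over all genes the groups did not overlap for 395 (2.24%), 125 with exposed mice higher (0.709%) and 270 with exposed mice lower (1.53%). Cardiac muscle markers varied widely in both groups, with list means from -0.04 to 2.64 in exposed and from 0.08 to 2.44 in vehicle mice, and none differed at that p.

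Of the 18 clock genes, Nfil3, described above, was the only one to pass the adjusted test against vehicle. At the unadjusted level, 3 were higher (Nfil3, Per1 and Arntl) and 7 lower. The lower ones included the PAR bZIP output factors Dbp (log2 difference -1.13, adjusted p = 0.117), Hlf (-0.84) and Tef (-0.31), and the nuclear receptors Nr1d1 (-0.27) and Nr1d2 (-0.61). Dbp read -0.39, 1.49, -0.10, 0.51 and 0.61 in the exposed mice and 1.41 to 1.63 in the vehicle mice. Exposed replicate 2 was again the one inside the vehicle range, while replicate 3, which lay near the vehicle range for Saa3, Lcn2 and Ccl2, was low. Among 19 heat shock chaperones 3 were higher and 1 lower. Hspa1a and Hspa1b, nearly identical copies that probes may not tell apart, differed by 0.72 (adjusted p = 0.192) and 0.28 (adjusted p = 0.375). Of 20 antioxidant target genes of Nrf2, 2 were higher, and heme oxygenase 1 (Hmox1) differed by 0.24 (SE 0.19).

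Set against the 18 µg dose of the same particle on the same day, more genes were called. At 162 µg minus 18 µg, 166 of 17634 genes (0.941%) were called, 99 higher at 162 µg (0.561%) and 67 lower (0.38%). At an unadjusted p below 0.05, 1539 genes (8.73%) differed, 942 higher (5.34%) and 597 lower (3.39%). No vehicle array enters the difference itself, but the spread behind its SE and p is shared by all 69 arrays, vehicle included. The 18 µg mean lay below the vehicle mean for 86 of the 99 genes called higher, and above it for all 67 called lower. A call here is thus not by itself a departure of the 162 µg mice from vehicle. Of the 25 genes of macrophage lysosome and lipid handling, 5 were called higher: Spp1, Gpnmb, Trem2, Ctss and the lipid droplet coat gene Plin2. Of the 19 pattern and scavenger receptors, 4 were called higher (Fcgr1, Clec4e, Tlr2 and Tlr7), as were Cx3cr1, Fcgr1, Ms4a7 and Plac8 among the 11 markers of interstitial macrophages and monocytes. The 162 and 18 µg arrays overlapped for all of these macrophage, receptor and marker genes except Plin2 and Plac8. With slide as a block Ms4a7 and Plac8 were no longer called (adjusted p = 0.0655 and 0.0602 by limma). Cx3cr1 averaged 0.74 both at 162 µg and in vehicle, and 0.43 at 18 µg, so its difference lay in the 18 µg mice. Plin2 averaged 0.43 at 162 µg, 0.21 in vehicle and -0.12 at 18 µg, and Plac8 2.42, 1.85 and 1.39. None of the 27 chemokines, the 15 acute-phase proteins or the 38 matrix genes was called.

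For Spp1 the 18 µg mice read -5.41, -5.23, -4.72, -4.78 and -4.98, close to the vehicle mean of -5.12 ± 0.18 (SD, n = 4), and the 162 µg group was higher by 2.04 (SE 0.44, adjusted p = 0.00978). Gpnmb was higher at 162 µg by 1.95 (adjusted p = 0.0241) and Trem2 by 1.47 (adjusted p = 0.0207). For both genes the 18 µg means, -3.73 and -2.07, lay near the vehicle means, -3.76 and -2.14. For Spp1, Gpnmb and Trem2 the 162 and 18 µg arrays overlapped. Exposed replicate 2, at -5.26, -3.68 and -1.83, lay within the 18 µg range for each, and replicate 3 within or below it for Gpnmb and Trem2. The SD of Spp1 was 1.74 at 162 µg and 0.29 at 18 µg, while its SE and p use the spread shared by all groups. The 54 µg means of Spp1, Gpnmb and Trem2 were -4.77, -3.75 and -2.18. Nr4a1 was higher at 162 than at 18 µg by 1.81 (adjusted p = 0.0129), with 54 µg at 0.16 ± 0.21 (SD, n = 5), and Atf3 and Nfil3 by 0.76 and 0.77 (adjusted p = 0.0347 and 0.0228). The 162 and 18 µg arrays overlapped for Nr4a1, Atf3 and Nfil3 as well.

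Among the genes lower at 162 than at 18 µg, Tspan4, a tetraspanin, had the smallest p of the contrast. It read 0.76, 0.47, 0.50, 0.37 and 0.28 at 18 µg, -0.34 to -0.11 in vehicle, and -0.84, -0.34, -1.05, -0.68 and -0.68 at 162 µg, a log2 difference of -1.19 (SE 0.14, adjusted p = 3.4e-07). The 18 µg mice lay above and the 162 µg mice below the vehicle range, by a narrow margin in exposed replicate 2. Hspa1a read 3.14, 3.03, 3.05, 2.74 and 2.80 at 18 µg, against 1.57 ± 0.39 (SD, n = 5) at 162 µg and 0.85 ± 0.47 (SD, n = 4) in vehicle, and had a log2 difference of -1.38 (adjusted p = 1.19e-05). Both dose groups thus had means above the vehicle mean, the 18 µg group by more. Of 19 heat shock chaperones, 4 were called lower at 162 µg (Hspa1a, Hspa1b, Hsph1 and Chordc1). Of 18 clock genes, 7 were called lower (Dbp, Hlf, Tef, Per2, Nr1d1, Nr1d2 and Ciart) and 2 higher (Arntl and Nfil3). Dbp averaged 2.19 ± 0.23 (SD, n = 5) at 18 µg, 1.55 ± 0.10 (SD, n = 4) in vehicle, 1.08 ± 0.31 (SD, n = 5) at 54 µg and 0.42 ± 0.73 (SD, n = 5) at 162 µg. Tef followed the same order, at 0.69, 0.34, 0.30 and 0.03, with the 54 µg and vehicle means closer together than their SDs of 0.11 and 0.17. The count of calls ranged from 57 without exposed replicate 4 to 414 without exposed replicate 2, and was 25, with 20 of them among the 166, when only the groups compared were fitted. Of those 25 genes 3 were higher at 162 µg, as were 15 of the 57 without exposed replicate 4 and 334 of the 414 without exposed replicate 2.

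**Figure D5:**
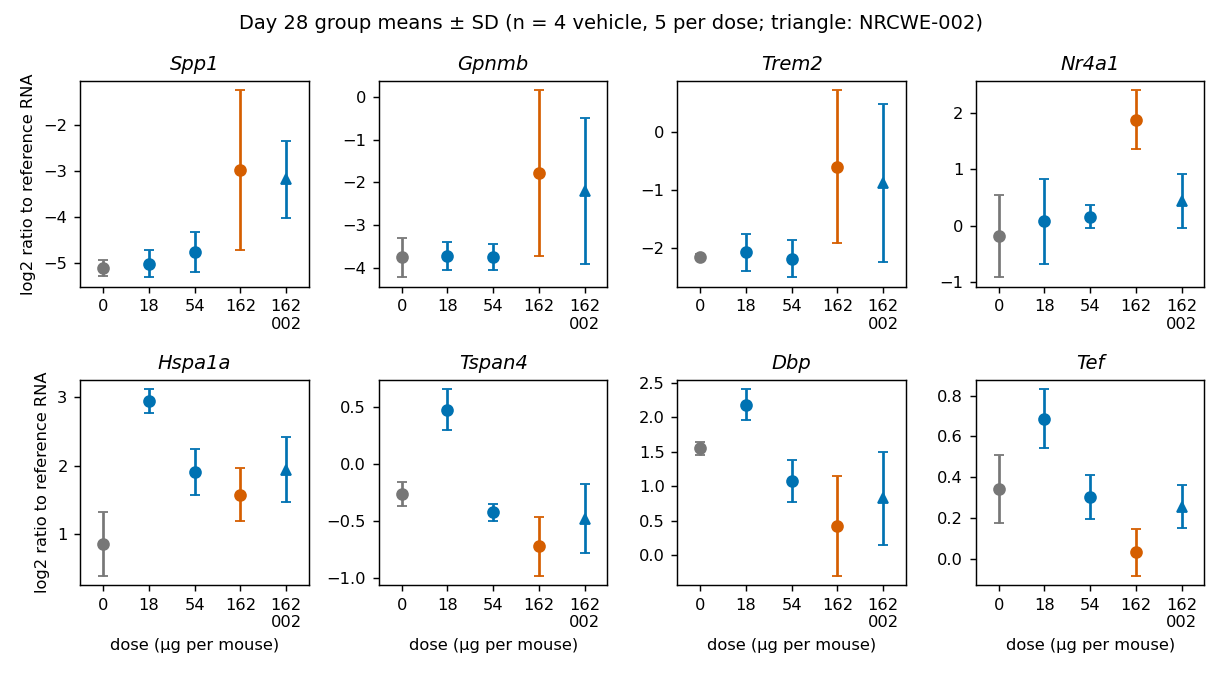
Mean log2 ratio to reference RNA ± SD (vertical axis) on day 28 against dose (horizontal axis, µg per mouse) for 8 genes, with vehicle in grey, NRCWE-001 at 18 and 54 µg in blue, NRCWE-001 at 162 µg in orange and NRCWE-002 at 162 µg as a blue triangle. Spp1, Gpnmb and Trem2 are high, with wide bars, in both 162 µg groups, Nr4a1 is highest with NRCWE-001 at 162 µg, and Hspa1a, Tspan4, Dbp and Tef are highest at 18 µg.

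The effect of 162 µg on day 28 was also set against its effect on day 1, each relative to the vehicle mice of its own day. No gene passed limma's adjusted test of this difference, while 766 (4.34%) had an unadjusted p below 0.05, 277 of them with the more positive effect on day 28 (1.57%) and 489 with the more negative (2.77%). Saa3 read 4.35, 3.72, 4.28, 5.14 and -3.51 in the exposed mice of day 1, so that 4 mice were high and replicate 5 lay in the vehicle range of -3.78 to -3.04. The effect on Saa3 on day 28 minus that on day 1 was -3.08, with a 95% interval from -6.42 to 0.26. Lcn2 read 4.79, 4.36, 4.72, 4.70 and 0.96 on day 1, again with replicate 5 in the vehicle range of 0.87 to 1.28. For Spp1, Gpnmb, Trem2 and Ctss, 4 genes prominent on day 28, the effect on day 28 minus that on day 1 was 1.25 (-0.04 to 2.54), 1.49 (0.10 to 2.89), 1.40 (0.37 to 2.43) and 1.47 (0.60 to 2.34). The adjusted p was 0.887 for Ctss and above that for the others. These intervals use the spread shared by all 14 groups. The SD in the exposed mice of day 28 was 1.74 for Spp1, 1.94 for Gpnmb, 1.32 for Trem2 and 1.15 for Ctss. For these genes the intervals can thus be too narrow, also where they leave out 0. Exposed mice of day 1 read -1.88, -1.93, -1.69, -1.49 and -2.18 for Trem2, near the -2.17 to -1.85 of their vehicle mice. For Nr4a1 the difference was 1.20 (0.02 to 2.37) and for Timp1, which was the larger on day 1, -1.86 (-3.30 to -0.43). The interval for Col1a1 was -0.94 to 0.34.

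At the same dose and day, the positively charged NRCWE-002 was compared with NRCWE-001, the only pair of particles compared. No gene was called by limma, and 1479 (8.39%) had an unadjusted p below 0.05, 693 higher with NRCWE-002 (3.93%) and 786 lower (4.46%). The NRCWE-002 group was mixed in the same way: Saa3 read -3.46, -0.76, -3.27, 0.79 and -0.65, and Gpnmb -3.91, 0.38, -3.64, -1.93 and -1.93, with replicates 1 and 3 in or near the vehicle range. The difference, NRCWE-002 minus NRCWE-001, was -0.85 for Saa3 (95% interval -3.14 to 1.44), -0.23 for Lcn2 (-1.45 to 0.99), -0.20 for Spp1 (-1.09 to 0.69), -0.42 for Gpnmb (-1.38 to 0.53) and -0.28 for Trem2 (-0.98 to 0.43). As computed, these intervals leave room for differences of more than 1 log2 unit in Saa3, Lcn2, Spp1 and Gpnmb. They rest on 1 spread estimate per gene, shared by all 14 groups. Within the NRCWE-001 group the SD was 1.32 for Trem2, 1.94 for Gpnmb and 1.74 for Spp1. The intervals can thus be too narrow for these genes, and a larger difference in Trem2 is not excluded either. Among the 8 genes called against vehicle, Nr4a1 read 1.02, 0.03, 0.53, -0.12 and 0.74 with NRCWE-002 and differed by -1.44 (-2.24 to -0.63, adjusted p = 0.354). Each of the 5 NRCWE-001 mice was above each of the 5 NRCWE-002 mice for this gene. Fosl2 differed by -0.33 (adjusted p = 0.367) and Gpr171 by -0.77 (adjusted p = 0.310). Spp1 read -4.12, -2.66, -4.07, -2.47 and -2.62 with NRCWE-002, so that all 5 of those mice lay above the vehicle range of -5.25 to -4.85.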

How the data were processed

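The authors deposited the scanner output of 69 two-colour arrays (Agilent Feature Extraction 11.0.1.1) as linear intensities, and a table of normalized log2 ratios. Per the labels, lung RNA was in Cy5 and the reference in Cy3, with no dye swap. The main values start from the deposited intensities: normexp background correction (offset 50, spots over 10 median absolute deviations from the background left out of its fit), loess within arrays, medians over repeat spots, and a filter for probes well above background on 4 of 69 arrays. The deposited log2 table, an alternative here, correlated at 0.988 to 0.995 with these values on the 9 arrays. Of 41174 probes, 27479 (66.7%) were matched by accession to a RefSeq symbol (GRCm38.p6). Probes of a gene were combined by their median, leaving 17634 genes. One limma 3.58.1 fit (R 4.3.3) over 69 arrays in 14 groups gave the contrasts, with Benjamini-Hochberg adjusted p below 0.05 as the call, and intervals at the 95% level. The fit was tested on simulated data with independent arrays and the same spread of a gene in every group. The real arrays had a correlation of 0.47 within slides and a larger spread among exposed mice for many genes. The simulation cannot show how the calls hold under those features.

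Genes named were those called, the 6 higher and 6 lower uncalled genes with the largest change among those with unadjusted p below 0.01 and no overlap, the 2 smallest p in each of 21 gene lists, 20 fixed genes, and up to 4 called genes of each other contrast. Others were named to fill out a list's count and were chosen after their values were seen. The comparison and the lists were chosen with earlier results of these data known. No list was tested. A result for 1 of the fixed genes is not reported here. Replicate numbers follow accession order and only name arrays. Precision is limited by the number of arrays.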

Additional observations from a re-analysis of the deposited data

Results flagged for a closer look

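In 142 sets of values (71 named genes, each in the exposed and in the vehicle group), 3 had 1 mouse far from the others of its group by Dixon's criterion, which chance meets in about 1 set in 20. Gpnmb in vehicle replicate 2 read -3.07, and the nearest vehicle mouse read -3.91. B2m in the same mouse read -0.35, with the nearest at -0.06. Ccne1, a cyclin of the G1 to S transition, read -1.96 in vehicle replicate 1, with the nearest at -1.71. Vehicle replicate 2 stood above the other 3 vehicle arrays in 35.1% of all genes and below them in 37.5%.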

How the results depend on the processing

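The 8 calls against vehicle became 1 with the scanner software's processed signals, 13 with the brightest probe of a gene, 0 with slide or scan day as a fixed block, 1172 with array weights and 0 when only the groups compared were fitted. At an unadjusted p below 0.05 there were then 991, 1408, 813, 1416, 3756 and 1310 genes. Leaving out 1 array gave 0 to 85 calls. The day 28 minus day 1 contrast, with no call by limma, gave 3 with slide as a fixed block, 2 with slide as a random block, 3 with scan day as a fixed block, 155 with array weights and 0 to 3 without 1 array (3 without replicate 5 of 162 µg on day 1). The 166 calls of 162 minus 18 µg became 75 with median centring in place of loess (73.3% of them higher against 59.6%), 345 with quantile normalization, 552 with slide as a fixed block, 633 with slide as a random block, 534 with scan day as a fixed block, 1271 with array weights, 25 with only the groups compared and 57 to 414 without 1 array. NRCWE-002 minus NRCWE-001, with no call, gave 4 with median centring, 22 with array weights and 0 to 6 without 1 array (6 without NRCWE-002 replicate 5). The 395 genes without overlap became 201 with median centring (48.3% of them with exposed mice higher against 31.6%), 329 with the processed signals (47.1% higher) and 460 to 1327 without 1 array. The cause of these shifts was not tested.

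Some genes near 0 changed sign. Arg1 became 0.10 with slide and 0.11 with scan day as a fixed block, Retnla -0.068 with the processed signals, and Tgm2, at -0.32 in the main values, 0.038 with slide as a fixed block. Col1a1 became 0.18 with median centring and 0.018 with the brightest probe. Col3a1 became -0.15 with slide as a fixed block, -0.089 with slide as a random block and -0.11 with scan day as a fixed block. Fn1 became 0.17 with median centring and 0.076 with array weights. Without 1 array, Col1a1 ranged from -0.11 to 0.029 (positive without vehicle replicate 2 or 3 or exposed replicate 1, at 0.0075 and 0.0016 in the last 2 cases), Col3a1 from -0.018 without exposed replicate 3 to 0.20 without exposed replicate 1, and Fn1 from -0.11 to 0.18 (positive without vehicle replicate 2, and 0.075 without exposed replicate 4). None of the 8 called genes changed sign under any setting run. No paired analysis was possible because the labels give the arrays no replicate numbers.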

Other observations

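Cell cycle genes were not described above. Of 24 tested, 4 were higher and none lower at an unadjusted p below 0.05, and 23 of the differences were above 0, with a median of 0.25 that became 0.13 with slide as a block. Cenpe, a kinetochore motor, read -2.77, -2.42, -2.54, -2.38 and -2.31 in the exposed mice and -3.35 to -2.90 in the vehicle mice, without overlap (log2 difference 0.58, or 0.23 with slide as a block, adjusted p = 0.308 by limma). Cdkn1a, the cell cycle inhibitor p21, differed by 0.66. Among 23 cytokines and receptors 8 were higher and none lower, among them Il33, an alarmin of epithelium (0.81), Tnf (0.42) and Osm (0.23).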
